A study of Homo sapiens with 8 samples.

Results

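The genes examined were 41 human genes of the interferon response and of antigen presentation on class I molecules. They were taken by symbol from a table of 57603 genes, and each was found there. By role they comprised 5 signalling and transcription factors, 4 sensors of foreign RNA, 4 genes of the OAS family, 4 of the IFIT family, ISG15 with its protease USP18, 9 other effectors, 3 IFITM genes, 4 class I molecules with their light chain, 5 genes that supply and load peptides, and NLRC5, an activator of class I genes. The mean normalized count over the 8 libraries reached 10, the minimum for testing, in 32 of them.

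The cells were 22Rv1, an established human line of castration-resistant prostate cancer, carrying a transgene for either GFP, a fluorescent protein used as the control, or HNF4G, a nuclear receptor of gut and liver. Both transgenes were driven by the MSCV viral promoter. Each line was given ABBV-075 at 25 nM or the solvent DMSO over 24 hours. ABBV-075 blocks the bromodomains of the BET proteins, which read acetylated histones and help RNA polymerase II to elongate. The 4 groups, GFP-DMSO and HNF4G-DMSO with their treated counterparts GFP-ABBV-075 and HNF4G-ABBV-075, had 2 libraries each, and every library came from cells with a transgene. No group received interferon, according to the labels. The question for these genes was how BET inhibition changed their transcripts and whether the HNF4G transgene altered that change.

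Values are normalized counts, the reads of a gene divided by 1 size factor per library, from 31508275 to 40262678 reads a library. HNF4G checked the labels, at 993 to 1088 normalized counts under DMSO and 206 to 213 under ABBV-075 in GFP cells, against 10109 to 12104 under DMSO and 34116 to 43972 under ABBV-075 in HNF4G cells. Prostate epithelial markers were abundant, with KRT8 between 15600 and 29800 in every library, except KLK3, which ranged from 46.6 to 1710.0. The 12 immune and endothelial markers together summed to between 34.9 and 57.3 per library. Nothing in the labels tied the libraries of a group to separate cultures. The p-values below therefore cover the spread between libraries only, and that spread may be technical. Number 2 of HNF4G-DMSO and number 1 of HNF4G-ABBV-075 stood apart from the other 6 libraries, with reads from transcripts of lower mean GC content (46.29% and 46.28%, against 47.38% to 47.86%).

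Interferons are secreted proteins that cells release on sensing viral nucleic acid. Their receptors activate STAT and IRF transcription factors, which bind short elements in the promoters of interferon-stimulated genes, the interferon-stimulated response element (ISRE) and the gamma-activated site (GAS). The induced proteins block steps of viral replication, and another set of induced genes cuts, transports and loads peptides onto class I molecules for display to CD8+ T cells. Epithelial tumour cells express part of this programme without added interferon.

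Promoters of RefSeq (build GRCh38.p14, 250 bases before to 50 after a start site) were listed for 30 of the 41 genes, 37 promoters in all. An ISRE-type motif, GAAANNGAAA on either strand, occurred in at least 1 promoter of 21 of these 30 genes, against 3.57% of the 35116 promoters listed for all genes. A GAS-type motif, TTCNNNGAA, which reads alike on both strands, occurred in 11 of the 30 and in 7.66% of all promoters. In 4 genes (BST2, IFI27, IFITM1 and MX1) matches of both kinds overlapped, and 5 genes had neither. IRF2, IRF7, OAS2, OASL, IFIT2, DHX58, USP18, MX2, IFITM2, HLA-E and NLRC5 had no listed promoter. The sequences of 5 promoters are shown 5′ to 3′ because each holds at least 2 ISRE-type matches while the transcripts went opposite ways under ABBV-075. They were chosen after the values were seen. OAS3 (chr12:112938224-112938523, plus strand), IFIH1 (chr2:162318635-162318934, minus strand) and TAP1 (chr6:32853655-32853954, minus strand) belong to genes that fell, IFI6 (chr1:27672143-27672442, minus strand) and B2M (chr15:44711267-44711566, plus strand) to genes that rose. Capitals mark the ISRE-type matches, and 2 overlapping matches form each longer run of capitals.
OAS3: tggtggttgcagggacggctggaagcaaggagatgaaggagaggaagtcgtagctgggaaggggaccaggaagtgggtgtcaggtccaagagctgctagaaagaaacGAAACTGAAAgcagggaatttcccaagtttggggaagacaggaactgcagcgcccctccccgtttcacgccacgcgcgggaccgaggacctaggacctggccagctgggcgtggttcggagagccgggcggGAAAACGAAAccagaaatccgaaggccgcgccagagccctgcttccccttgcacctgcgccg
IFIH1: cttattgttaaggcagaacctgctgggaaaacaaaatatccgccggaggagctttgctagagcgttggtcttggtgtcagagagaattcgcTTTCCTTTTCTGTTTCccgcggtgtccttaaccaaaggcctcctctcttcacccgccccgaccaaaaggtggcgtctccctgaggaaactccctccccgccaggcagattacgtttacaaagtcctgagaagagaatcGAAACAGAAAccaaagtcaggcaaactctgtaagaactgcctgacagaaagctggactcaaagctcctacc
TAP1: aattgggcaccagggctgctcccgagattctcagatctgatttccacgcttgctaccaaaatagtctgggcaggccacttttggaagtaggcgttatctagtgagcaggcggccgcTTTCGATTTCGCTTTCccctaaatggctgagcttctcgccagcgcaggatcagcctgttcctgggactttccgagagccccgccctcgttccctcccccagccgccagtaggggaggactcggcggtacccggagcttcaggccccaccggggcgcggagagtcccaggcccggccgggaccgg
IFI6: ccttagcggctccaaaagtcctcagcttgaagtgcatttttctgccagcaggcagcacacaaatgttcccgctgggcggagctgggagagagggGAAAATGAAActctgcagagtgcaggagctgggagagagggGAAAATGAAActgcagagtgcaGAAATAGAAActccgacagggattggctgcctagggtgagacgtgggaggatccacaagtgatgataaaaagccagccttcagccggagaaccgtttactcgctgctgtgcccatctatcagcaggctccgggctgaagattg
B2M: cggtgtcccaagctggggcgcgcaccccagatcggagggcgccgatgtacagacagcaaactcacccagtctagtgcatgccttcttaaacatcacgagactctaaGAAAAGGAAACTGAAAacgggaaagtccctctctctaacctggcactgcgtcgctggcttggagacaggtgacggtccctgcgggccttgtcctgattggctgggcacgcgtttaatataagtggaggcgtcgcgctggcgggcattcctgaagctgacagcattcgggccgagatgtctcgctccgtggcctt

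**Figure D1:**
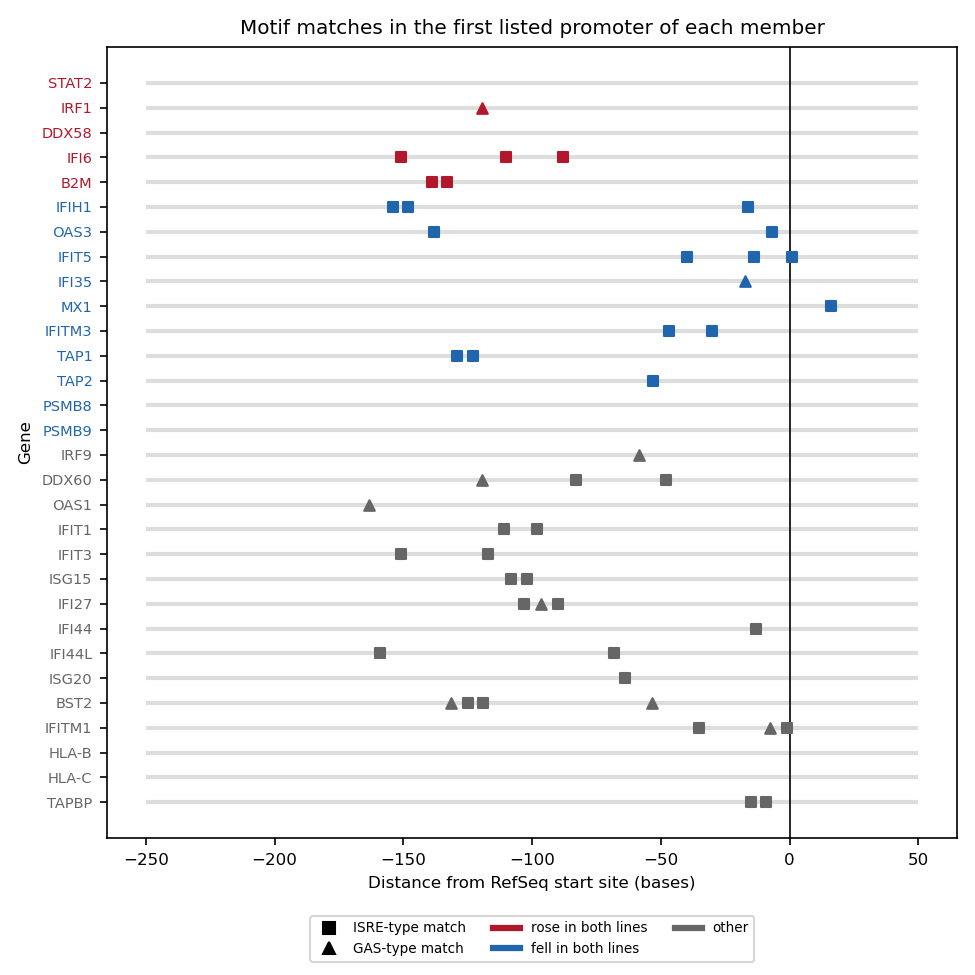
Positions of ISRE-type (squares) and GAS-type (triangles) matches in the first listed promoter of 30 genes, in bases from the RefSeq start site. Red names rose with ABBV-075 in both lines, blue names fell in both, and grey names did neither. Matches appear in red and in blue promoters.

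Read against direction, an ISRE-type match was found in 2 of the 5 genes with a listed promoter that rose with ABBV-075 in both lines, and in 8 of the 10 that fell in both. GAS-type matches were found in 1 of the 5 and in 4 of the 10. STAT2 and DDX58, which rose, held neither motif in these windows. Matches are given as a description of the letters only. TAP1 and PSMB9, which both fell, are transcribed away from each other on chromosome 6, with start sites 488 bases apart for the first TAP1 promoter.

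In GFP cells ABBV-075 was followed by falls and rises among these genes. Those that fell were mostly effectors and peptide transport genes, with OAS3 down 6.79-fold, TAP2 4.90-fold and IFIH1 4.14-fold, while the transcription factors STAT2, IRF1 and IRF7, the sensor DDX58, the effector IFI6 and the class I molecules HLA-B and B2M rose. Of the 32 genes tested, 7 rose and 14 fell at an adjusted p under 0.05 (limma, adjusted over 17876 genes). Among all tested genes 14.2% rose and 19.2% fell. The 21 calls became 13 when any 1 GFP library was left out, and the share of all tested genes called, in either direction, went from 33.4% to between 16.3% and 17.2%. The median log2 change was -0.49 for the 32 genes and -0.01 for all tested genes. In a bulk library, fewer cells of one kind and less RNA per cell cannot be told apart.

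In HNF4G cells 6 of the 32 genes rose and 15 fell, where 12.9% of all tested genes rose and 18.3% fell, and the median log2 change was -0.59 against 0.02 for all genes. The 6 that rose (STAT2, IRF1, IRF7, IFI6, DDX58 and B2M) had also risen in GFP cells. Of these, IFI6 passed the minimum for testing through its treated libraries. Another 12 fell in both lines, namely OAS3, IFIT5, IFI35, IFIH1, USP18, MX1, IFITM2, IFITM3, TAP1, TAP2, PSMB8 and PSMB9. Calls in 1 line only were HLA-B (higher), MX2 and BST2 (lower) in GFP cells, and IRF2, DDX60 and IFITM1 (lower) in HNF4G cells. The fitted changes had the same sign in both lines for 30 of the 32 genes, the exceptions being IRF9 and ISG15, which were called in neither. The shares of all tested genes with the same sign, or with the same call, in both lines were not counted. The agreement in sign and the counts of 6 and 12 are thus not shown to be particular to these genes. Without the pair of libraries of low GC content the counts were 8 higher and 18 lower in GFP cells, where 28.8% of all tested genes rose and 31.2% fell in that setting. In HNF4G cells they were 10 higher and 17 lower, against 22.3% and 25.3% of all tested genes. That setting leaves a single library in each HNF4G group, so its spread comes from the GFP pairs.

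**Figure D2:**
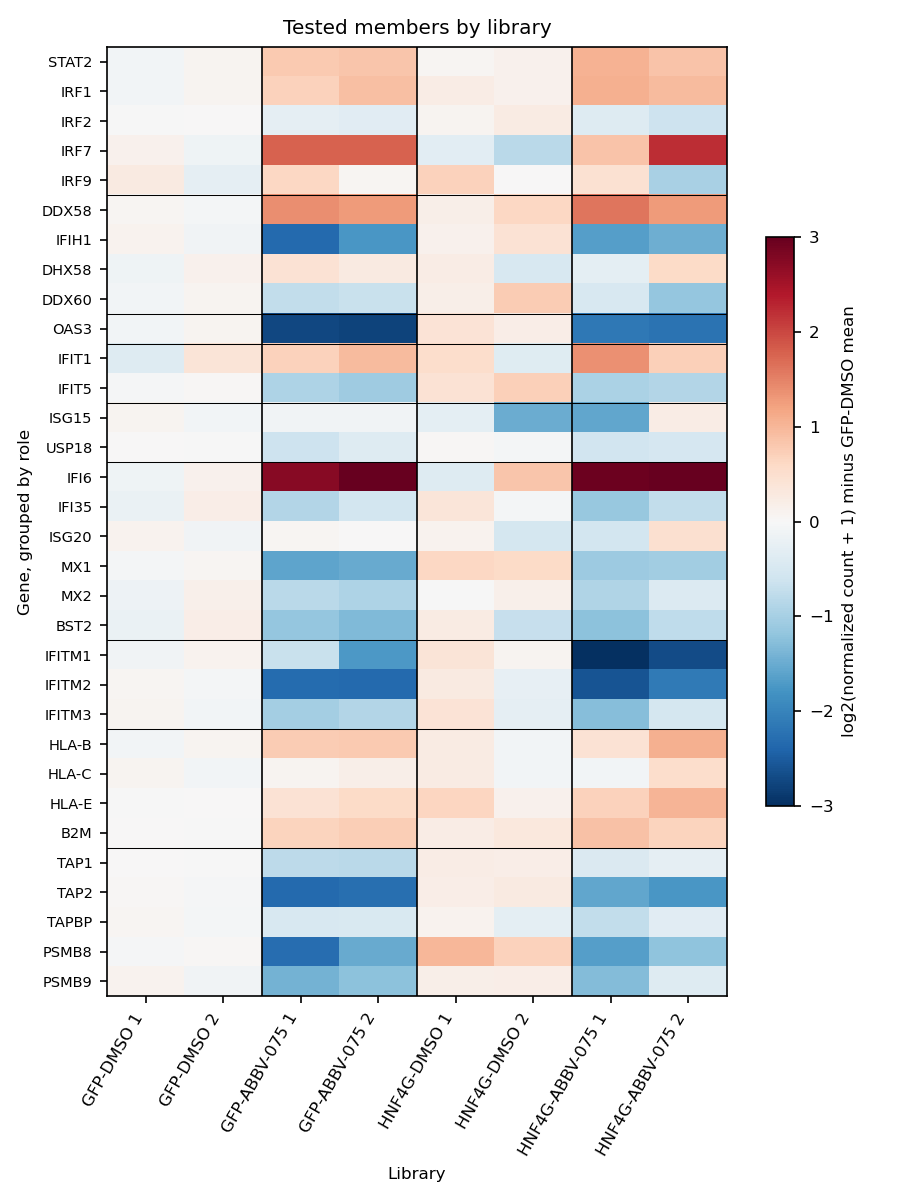
Heat map of the 32 tested genes in the 8 libraries, as log2(normalized count + 1) minus the mean of the GFP-DMSO libraries, with genes grouped by role between horizontal lines. Red is higher and blue lower, and colours saturate at the ends of the scale. OAS3, IFITM2 and TAP2 are blue and IFI6 and DDX58 red in all 4 ABBV-075 libraries.

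Among the signalling and transcription factors, STAT2, the partner of the interferon-activated STAT complex, stood at 1204 and 1359.7 under DMSO and 2217 and 2275 under ABBV-075 in GFP cells, and 1336 and 1398 under DMSO and 2619.5 and 2331 under ABBV-075 in HNF4G cells (number 1, then number 2, as throughout). All ABBV-075 libraries were above all DMSO libraries. Such separation, here and below, is a description and adds no support, as genes with library values were mostly picked by their calls. The share of all tested genes with groups apart was not counted. The log2 change of STAT2 was 0.81 ± 0.11 (SE, as below) in GFP cells and 0.85 ± 0.11 in HNF4G cells (adjusted p = 0.0013 and 0.0011). IRF1, a factor that binds the ISRE and drives class I genes, had 68.7 and 76.8 normalized counts under DMSO and 118 and 137 under ABBV-075 in GFP cells, and 85.3 and 79.5 under DMSO and 154 and 142 under ABBV-075 in HNF4G cells. Here too the treated libraries lay above every DMSO library, with changes of 0.80 ± 0.16 and 0.84 ± 0.16 (adjusted p = 0.0073 and 0.0065). The GFP call for IRF1 was lost when GFP-DMSO number 1 or GFP-ABBV-075 number 2 was left out (adjusted p up to 0.07). An antisense gene with exons over IRF1, IRF1-AS1, was at a mean of 12.8.

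IRF7, the factor that amplifies type I interferon production, had the largest change of this group. Its normalized counts were 84.2 and 69.7 under DMSO and 262 and 262 under ABBV-075 in GFP cells, and 61.1 and 43.2 under DMSO and 139.8 and 358 under ABBV-075 in HNF4G cells. Both GFP-ABBV-075 values were nearly equal, whereas the HNF4G-ABBV-075 values lay far apart, with the library of low GC content the lower one, and no group overlapped with its control. The changes were 1.76 ± 0.39 and 2.10 ± 0.39 (adjusted p = 0.011 and 0.0055). Without HNF4G-ABBV-075 number 1 or number 2 the HNF4G change spanned 1.43 to 2.78 over the libraries left out, and the GFP call was lost without GFP-DMSO number 2 or either GFP-ABBV-075 library (adjusted p up to 0.076). IRF2, which competes with IRF1 at the same sites, changed by -0.30 ± 0.13 in GFP cells, not called (adjusted p = 0.12), and fell in HNF4G cells by 0.67 on the log2 scale (adjusted p = 0.0072). IRF9, the DNA-binding subunit that joins STAT2, was barely detected, at 5.15 to 18.4 normalized counts, and was called in neither line.

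The RNA sensors DDX58 and IFIH1 moved in opposite directions. DDX58, which encodes RIG-I (the name RIGI in the annotation), a sensor of short RNA with 5′ triphosphates, read 313 and 289.9 under DMSO and 788 and 731 under ABBV-075 in GFP cells, and 340.3 and 466 under DMSO and 912 and 733 under ABBV-075 in HNF4G cells. It was higher in each treated library than in any DMSO library, by 1.33 ± 0.18 and 1.04 ± 0.18 on the log2 scale (adjusted p = 0.0011 and 0.0038). IFIH1, which encodes MDA5, a sensor of long double-stranded RNA, went the other way, from 222 and 189.9 to 39.7 and 59.98 in GFP cells and from 226 and 276 to 65.03 and 74.1 in HNF4G cells. The treated libraries were all below the DMSO libraries, with changes of -2.05 ± 0.23 and -1.83 ± 0.23 (adjusted p = 0.00048 and 0.00087). Both genes share the downstream adaptor in textbook accounts of the pathway.

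DDX60, a helicase that assists RIG-I, was at 49.4 and 54.5 under DMSO and 30.9 and 32.3 under ABBV-075 in GFP cells, and 59.1 and 88.2 under DMSO and 36.9 and 22.6 under ABBV-075 in HNF4G cells. The treated libraries were lower in both lines. The change was called only in HNF4G cells (-1.29 ± 0.29, adjusted p = 0.013), and that call was lost without HNF4G-DMSO number 2 (adjusted p = 0.074). In GFP cells it was -0.70 ± 0.29 (adjusted p = 0.1). DHX58, which encodes LGP2, a regulator of the other sensors, lay between 64.8 and 136 and was called in neither line.

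Of the OAS family, whose products make the second messenger that activates RNase L, only OAS3 reached the minimum for testing. OAS3 (chromosome 12, 112938051 to 112976460, GRCh38) had 1559 and 1756 normalized counts in GFP-DMSO and 247 and 239 in GFP-ABBV-075. In HNF4G cells it had 2192 and 1910.0 under DMSO and 371 and 358 under ABBV-075. The highest treated library was far below the lowest DMSO library. OAS3 fell in both lines, with log2 changes of -2.76 ± 0.12 and -2.49 ± 0.12 (adjusted p = 1.3e-05 and 2.5e-05), and the log2 change spanned -2.85 to -2.68 in GFP cells and -2.59 to -2.39 in HNF4G cells when each library was left out in turn. Its neighbours OAS1 and OAS2 on the same chromosome, and OASL, were at 0 to 16.5 normalized counts in every library.

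IFIT proteins bind viral RNA. IFIT5 read 171 and 179.8 under DMSO and 91.5 and 83.05 under ABBV-075 in GFP cells, and 238 and 290.4 under DMSO and 90.3 and 94.7 under ABBV-075 in HNF4G cells. Treated libraries were uniformly lower, with changes of -1.002 ± 0.16 and -1.50 ± 0.16 (adjusted p = 0.0023 and 0.00042). IFIT1, on the same chromosome, was at 6.77 to 25.2 and had positive fitted changes, 0.82 ± 0.45 and 0.95 ± 0.45, that were not called (adjusted p = 0.2 and 0.14).

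ISG15, a ubiquitin-like protein that is conjugated to other proteins, was among the most abundant of these transcripts and was not called in either line. Its values were 1988 and 1775 under DMSO and 1739 and 1737 under ABBV-075 in GFP cells, and 1534 and 673 under DMSO and 635 and 2198 under ABBV-075 in HNF4G cells. The GFP libraries were close together, and the lowest values, 673 and 635, belonged to the pair of libraries of low GC content, where the ISG15 transcript itself has 63.4% GC. USP18, the protease that removes ISG15 and restrains receptor signalling, ranged from 643 to 686 under DMSO and from 435 to 510 under ABBV-075, with changes of -0.51 ± 0.12 and -0.52 ± 0.12 (adjusted p = 0.015 and 0.015). The USP18 call was lost in GFP cells without either GFP-DMSO library or without GFP-ABBV-075 number 1 (adjusted p up to 0.14), and in HNF4G cells without HNF4G-DMSO number 1 (adjusted p = 0.074).

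IFI6, a mitochondrial and endoplasmic reticulum protein with antiviral and anti-apoptotic activity, rose the most of the 32 genes tested. It had 4.84 and 6.06 normalized counts under DMSO and 41.9 and 74.98 under ABBV-075 in GFP cells, and 3.88 and 10.4 under DMSO and 48.5 and 71.01 under ABBV-075 in HNF4G cells. All treated libraries were well above all DMSO libraries, which held a few reads each. The changes were 3.15 ± 0.47 and 3.003 ± 0.47 (adjusted p = 0.0019 and 0.0025), and the gene passed the minimum for testing through its treated libraries.

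MX1, a dynamin-like GTPase that traps viral nucleocapsids, went from 84.2 and 91.9 to 28.6 and 29.99 in GFP cells and from 137 and 130.5 to 40.8 and 42.2 in HNF4G cells. Replicate libraries were close together and the groups were clearly apart, with changes of -1.55 ± 0.17 and -1.66 ± 0.17 (adjusted p = 0.00046 and 0.00038). Exons of MX1 overlap those of TMPRSS2 on the opposite strand, and TMPRSS2 also fell, by 0.97 in GFP cells and by 0.46 in HNF4G cells on the log2 scale, from DMSO means far above those of MX1. The strand setting of the counting was not given in the sources used here, so the share of MX1 reads that came from TMPRSS2 was not tested. MX2, the relative of MX1 that acts at the nuclear pore, was at 38.7 and 47.5 under DMSO and 24.2 and 21.9 under ABBV-075 in GFP cells, and 42.7 and 47.5 under DMSO and 22.3 and 31.9 under ABBV-075 in HNF4G cells. It was lower in each treated library, by a called change of -0.87 ± 0.25 in GFP cells (adjusted p = 0.033) and an uncalled one of -0.73 ± 0.25 in HNF4G cells (adjusted p = 0.062). The GFP call was lost when any 1 GFP library was left out (adjusted p up to 0.18), without the filter, under quantile normalization and with DESeq2.

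BST2, or tetherin, which holds budding virions at the cell surface, read 71.6 and 95.97 under DMSO and 36.4 and 32.3 under ABBV-075 in GFP cells, and 98.9 and 50.99 under DMSO and 34.9 and 48.4 under ABBV-075 in HNF4G cells. The groups were apart in both lines, though in HNF4G cells by little. Only the change in GFP cells, -1.25 ± 0.33, was called (adjusted p = 0.023, against 0.12 for -0.78 ± 0.33 in HNF4G cells), and it was lost when any 1 GFP library was left out (adjusted p up to 0.14). IFI35, an interferon-induced leucine zipper protein, had 231 and 305 under DMSO and 144 and 181 under ABBV-075 in GFP cells, and 343 and 254 under DMSO and 120.3 and 159.5 under ABBV-075 in HNF4G cells. It was lower in all treated libraries, by -0.71 ± 0.23 and -1.09 ± 0.23 (adjusted p = 0.047 and 0.0098), but the GFP call was lost under 9 of 23 alternatives, among them leaving out any GFP library (adjusted p up to 0.26), and the HNF4G call without HNF4G-DMSO number 1 (adjusted p = 0.051). ISG20, an exonuclease that degrades viral RNA, was at 166 to 341 and was not called.

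The IFITM genes, which encode membrane proteins that hinder fusion of viral and cellular membranes, lie next to each other on chromosome 11 and fell in HNF4G cells, all 3 of them. IFITM2 (303655 to 309397) read 968 and 879 under DMSO and 185 and 182 under ABBV-075 in GFP cells, and 1119 and 773 under DMSO and 152 and 210.0 under ABBV-075 in HNF4G cells. Every treated library was far below every DMSO library, with changes of -2.32 ± 0.21 and -2.37 ± 0.21 (adjusted p = 0.00021 and 0.00022). IFITM3 (319676 to 329475) had 867 and 771 under DMSO and 405 and 448 under ABBV-075 in GFP cells, and 1079 and 673 under DMSO and 339 and 563 under ABBV-075 in HNF4G cells. The groups did not overlap, but within each HNF4G pair the library of low GC content was the lower one. The changes were -0.94 ± 0.28 and -0.96 ± 0.28 (adjusted p = 0.033 and 0.032), and the call was lost in both lines when any 1 GFP library was left out, and in HNF4G cells also without number 1 of either HNF4G group (adjusted p up to 0.16 in GFP cells and 0.14 in HNF4G cells).

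IFITM1 (310041 to 315272) was the least abundant of the family, with 23.2 and 27.3 normalized counts under DMSO and 15.4 and 6.92 under ABBV-075 in GFP cells, and 32.97 and 26.8 under DMSO and 0.97 and 3.09 under ABBV-075 in HNF4G cells. The HNF4G-ABBV-075 libraries stood below all others, at 1 and 3 reads. The fall was called in HNF4G cells (-3.44 ± 0.49, adjusted p = 0.0016) and not in GFP cells (-1.20 ± 0.49, adjusted p = 0.096). The difference between those 2 changes was -2.24 ± 0.69 with an adjusted p of 1 (unadjusted p = 0.012), so it was not called. IFITM1 passed the minimum for testing through its DMSO libraries. The 3 genes are similar in sequence and the handling of reads that match several of them was not given in the sources used here.

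**Figure D3:**
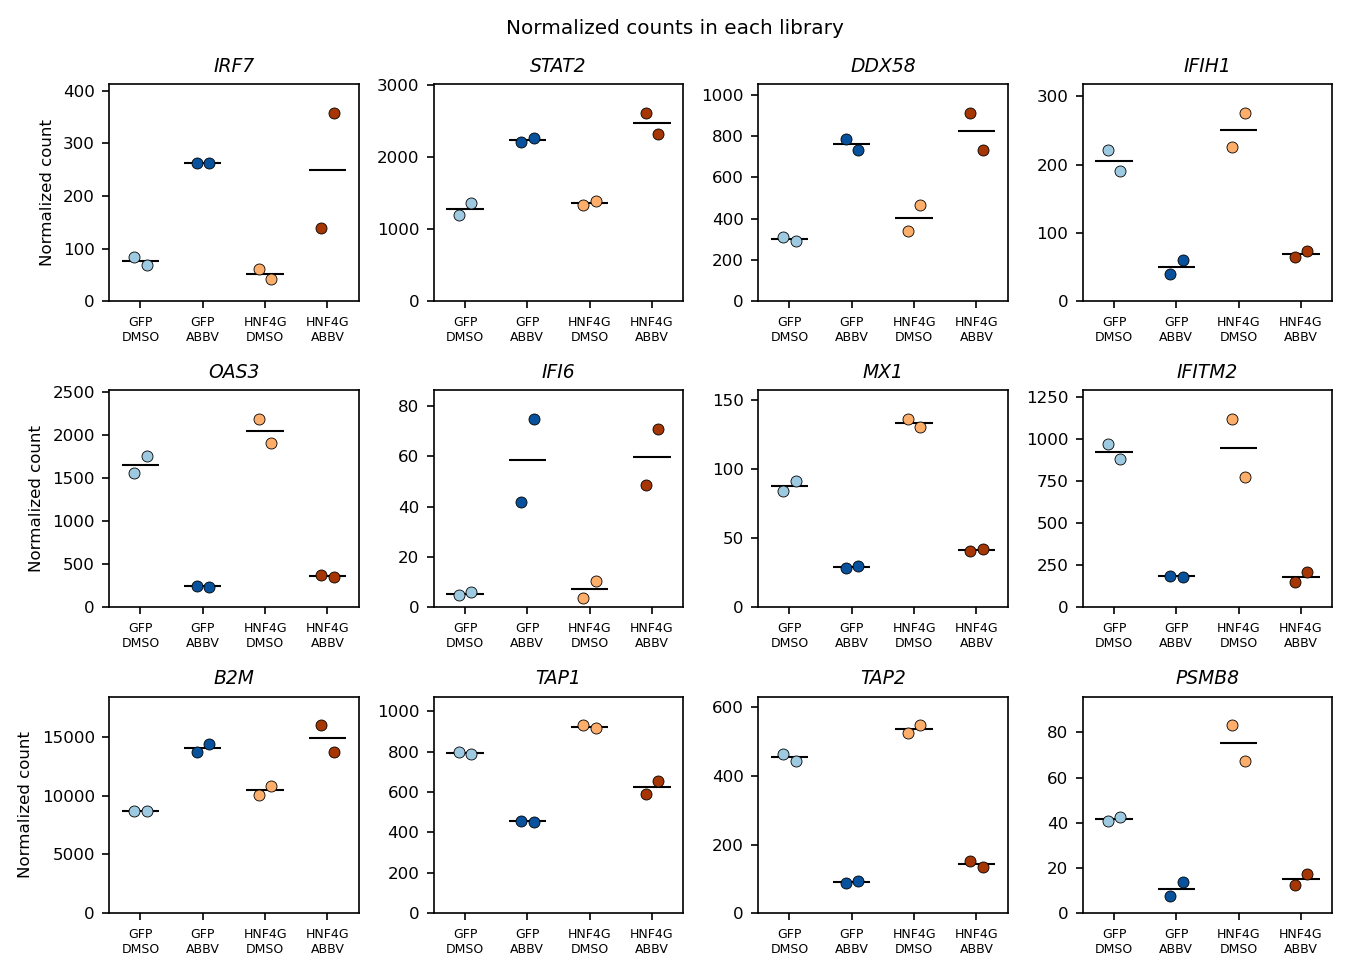
Normalized counts of 12 genes in each library, with points for the 2 libraries of a group, a line at their mean and an axis that starts at 0 in each panel. IRF7, STAT2, DDX58, IFI6 and B2M are higher under ABBV-075 in both lines, and IFIH1, OAS3, MX1, IFITM2, TAP1, TAP2 and PSMB8 are lower.

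Among the 4 class I molecules, 2 rose in GFP cells and 1 in HNF4G cells and none fell. Of the 5 genes that supply and load peptides, 4 fell in each line and none rose. The same shares of all tested genes as above apply, 14.2% higher and 19.2% lower in GFP cells and 12.9% and 18.3% in HNF4G cells. B2M, the light chain shared by all class I molecules, was the most abundant of the 41 genes, with 8672 and 8664 under DMSO and 13693 and 14368 under ABBV-075 in GFP cells, and 10037 and 10853 under DMSO and 16022 and 13736 under ABBV-075 in HNF4G cells. Its treated libraries were above all DMSO libraries, by 0.69 ± 0.10 and 0.51 ± 0.10 (adjusted p = 0.0015 and 0.0065). The heavy chain HLA-B ran from 142 to 179 under DMSO and from 204 to 317 under ABBV-075. Its change was called in GFP cells (0.77 ± 0.22, adjusted p = 0.031), a call lost when any 1 GFP library was left out (adjusted p up to 0.16), and was 0.67 ± 0.22 in HNF4G cells (adjusted p = 0.052). HLA-E, a ligand of NK cell receptors, and HLA-C had fitted changes of 0.50 ± 0.18 and 0.13 ± 0.20 in GFP cells and 0.47 ± 0.18 and 0.14 ± 0.20 in HNF4G cells, none of them called. Class I heavy chains are similar to each other and vary between alleles, so reads could be split between them.

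The transporter that carries peptides into the endoplasmic reticulum fell in both subunits. TAP1 (chromosome 6, 32845209 to 32853816) read 800.3 and 788 under DMSO and 458 and 451 under ABBV-075 in GFP cells, and 933 and 914 under DMSO and 592 and 654 under ABBV-075 in HNF4G cells. TAP2 (chromosome 6, 32821833 to 32838739) read 465 and 444 under DMSO and 89.2 and 94.6 under ABBV-075 in GFP cells, and 524 and 549 under DMSO and 152 and 135 under ABBV-075 in HNF4G cells. Both had all treated libraries below all DMSO libraries. The changes were -0.80 ± 0.11 and -0.57 ± 0.11 for TAP1 (adjusted p = 0.0012 and 0.006) and -2.29 ± 0.13 and -1.90 ± 0.13 for TAP2 (adjusted p = 3.5e-05 and 9e-05).

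PSMB8 and PSMB9 encode catalytic subunits of the immunoproteasome, which cuts proteins into peptides suited to class I molecules. PSMB8 had 40.6 and 42.4 normalized counts under DMSO and 7.71 and 13.8 under ABBV-075 in GFP cells, and 83.4 and 67.4 under DMSO and 12.6 and 17.5 under ABBV-075 in HNF4G cells. PSMB9 had 71.6 and 61.6 under DMSO and 24.2 and 27.7 under ABBV-075 in GFP cells, and 75.6 and 76.1 under DMSO and 26.2 and 50.4 under ABBV-075 in HNF4G cells. Treated libraries were lower for both genes, although HNF4G-ABBV-075 number 2 reached 50.4 for PSMB9. PSMB8 changed by -1.90 ± 0.32 and -2.26 ± 0.32 (adjusted p = 0.0033 and 0.0016). PSMB9 changed by -1.33 ± 0.30 and -1.04 ± 0.30 (adjusted p = 0.012 and 0.033). The PSMB9 call was lost in GFP cells when any 1 GFP library was left out (adjusted p up to 0.082) and in HNF4G cells when any 1 library other than HNF4G-ABBV-075 number 2 was left out (adjusted p up to 0.1). Exons of the 2 genes overlap on opposite strands, so without a known strand setting their reads could be shared. TAPBP, or tapasin, which bridges the transporter and empty class I molecules, ranged from 2391 to 3123 under DMSO and from 1733 to 2283 under ABBV-075 and was not called (-0.48 ± 0.17 and -0.46 ± 0.17, adjusted p = 0.061 and 0.072).

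**Figure D4:**
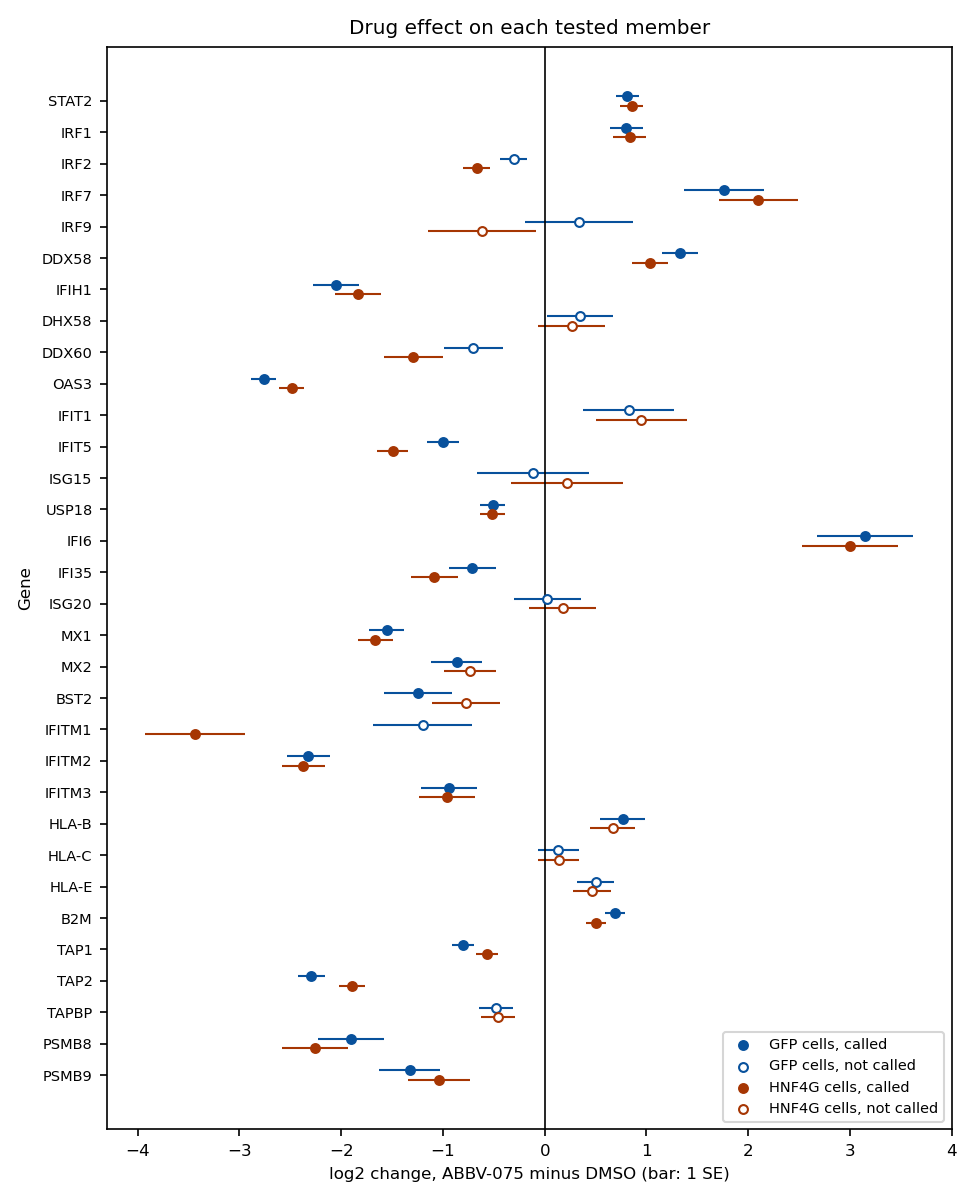
Log2 change with ABBV-075 against DMSO for the 32 tested genes in GFP cells (blue) and HNF4G cells (brown), with bars of 1 SE. Filled points passed an adjusted p of 0.05. IFI6 lies farthest right, near 3 in both lines, and IFITM1 in HNF4G cells farthest left, at -3.44.

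The other 9 genes, OAS1, OAS2, OASL, IFIT2, IFIT3, IFI27, IFI44, IFI44L and NLRC5, had means under 10 and were not tested in the main fit. The highest value of any of them in any library was 18.5, for IFI27, an interferon-induced mitochondrial protein. IFI44, a cytoplasmic antiviral protein, was read at 7.74 and 7.07 in GFP-DMSO and at 0 in both GFP-ABBV-075 libraries, which is at least 2.19-fold lower when the floor is set at 3 reads per library. IFIT3 was likewise at 0 in both GFP-ABBV-075 libraries and at least 1.46-fold lower, and IFI44L was at 0 in both HNF4G-ABBV-075 libraries and at least 1.87-fold lower. These bounds allow for counting error only in the libraries at 0, and take the few DMSO reads as exact. The genes were picked by their values of 0. Exons of IFIT2 and IFIT3 overlap LIPA on the opposite strand, a gene at a mean of 2342. NLRC5 was at 1.10 to 17.2.

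Divided by the length of the longest transcript, levels under DMSO in GFP cells were highest for B2M, at 3720 normalized counts per kb, then ISG15 at 2390, IFITM2 at 918, IFITM3 at 784, TAPBP at 705 and HLA-C at 502. Neighbours in this order were not tested against each other. With ABBV-075 the order at the top became B2M (6020), ISG15 (2210), HLA-C (551), TAPBP (506) and IFITM3 (409), with IFITM2 down to 183. At the other end IFI6 moved from 5.98 to 64.1 normalized counts per kb in GFP cells.

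The interferons themselves were next to undetected. Of 21 interferon genes, 15 had 0 reads in all libraries, IFNB1 among them, and the whole list had 17 reads in all, with at most 3 for any gene in a library. Counts of 0 allow up to 3 reads per library. In a list of 16 receptors and JAK-STAT signalling genes, of which 15 were tested, 8 rose and 1 fell in GFP cells, and 8 rose and 2 fell in HNF4G cells. Of all tested genes 14.2% rose and 19.2% fell in GFP cells, and 12.9% and 18.3% in HNF4G cells, which also holds for the lists that follow. The phosphatase PTPN6 rose by 1.12 ± 0.23 in GFP cells and 1.24 ± 0.23 in HNF4G cells. The receptor-associated kinase JAK1 rose by 0.83 ± 0.15 and 0.98 ± 0.15 in the same order. IFNGR2, a chain of the interferon gamma receptor, fell by 0.54 ± 0.10 and 0.37 ± 0.10 on the log2 scale. IFNLR1, the interferon lambda receptor, was called only in HNF4G cells (-0.39 ± 0.12, adjusted p = 0.044, against 0.052 in GFP cells).

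Of 15 tested genes of nucleic acid sensing outside the 41, 1 rose and 8 fell in GFP cells (19.2% of all tested genes fell), and 1 rose and 7 fell in HNF4G cells (18.3%). IKBKE, a kinase that activates IRF factors, went from 211 and 218 to 19.8 and 23.1 normalized counts in GFP cells, a log2 change of -3.27 ± 0.26, and changed by -3.03 ± 0.26 in HNF4G cells. MYD88, the adaptor of Toll-like receptors, changed by -2.59 ± 0.11 and -2.15 ± 0.11. SAMHD1, which depletes nucleotides, rose by 0.41 ± 0.10 and 0.45 ± 0.10.

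Among other interferon-stimulated genes, 3 of 28 tested rose and 15 fell in GFP cells, and 4 rose and 14 fell in HNF4G cells, with median log2 changes of -0.53 and -0.64 against -0.01 and 0.02 for all tested genes. The nucleotide kinase CMPK2 changed by -1.89 ± 0.24 and -2.39 ± 0.24, TRIM14 by -1.82 ± 0.12 and -1.14 ± 0.12, and PARP14, an ADP-ribosyltransferase, by -1.75 ± 0.15 and -2.01 ± 0.15. HERC5, the ligase that attaches ISG15, rose by 1.53 ± 0.26 and 0.98 ± 0.26. CNP rose in HNF4G cells by 0.58 ± 0.16 and was at 0.43 ± 0.16 in GFP cells (adjusted p = 0.074).

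Of 19 tested genes of class I presentation outside the 41, 2 rose and 5 fell in GFP cells, near the 14.2% and 19.2% of all tested genes, and 1 rose and 7 fell in HNF4G cells, where 12.9% and 18.3% of all did. MR1, a class I-like molecule that presents vitamin metabolites, changed by -1.02 ± 0.15 and -1.17 ± 0.15, and ERAP1, which trims peptides in the endoplasmic reticulum, by -0.79 ± 0.15 and -0.77 ± 0.15. MICA, a stress ligand of the receptor NKG2D, rose by 0.83 ± 0.13 and 0.89 ± 0.13, and the proteasome activator subunit PSME1 rose in GFP cells by 0.39 ± 0.08. Of 6 tested class II genes, 1 rose and 2 fell in GFP cells, and 0 rose and 2 fell in HNF4G cells, HLA-DQB1 among them (-1.09 ± 0.16 and -0.75 ± 0.16).

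Of the 9 prostate epithelial markers, 2 rose and 2 fell in each line, with log2 changes of 0.52 ± 0.07 and 0.57 ± 0.07 for FOXA1, 0.45 ± 0.11 and 0.58 ± 0.11 for FOLH1, -2.40 ± 0.17 and -3.01 ± 0.17 for KLK3 and -0.47 ± 0.10 and -0.47 ± 0.10 for EPCAM (GFP cells, then HNF4G cells).

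The HNF4G transgene by itself moved none of the 32 tested genes past the threshold in the main fit. That is near the small share of all tested genes that passed it, and other settings given below had calls. Under DMSO 0 of the 32 tested genes were called between HNF4G and GFP cells by limma, edgeR or DESeq2, where 0.783% of all tested genes were higher and 0.117% lower by limma. Unadjusted p-values were under 0.05 for 5 genes by limma and by edgeR and for 2 by DESeq2, all higher in HNF4G cells. By limma these were OAS3, IFIT5, MX1, B2M and PSMB8, with changes from 0.27 for B2M to 0.84 for PSMB8. The share of all tested genes with an unadjusted p under 0.05 was not counted, here or in the comparisons below. Nothing particular to the 32 genes is read from such counts. The median was 0.17 for the 32 genes and 0.00 for all tested genes. Outside the 41, and chosen after its values were seen, HLA-DMB, a chaperone of class II peptide loading, was higher in HNF4G cells by 1.19 ± 0.15 under DMSO (adjusted p = 0.012).

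Under ABBV-075, again 0 of 32 were called by any of the 3 tools, against 1.64% of all genes higher and 0.336% lower by limma. DESeq2 gave no adjusted p for 3 of the 32. An unadjusted p under 0.05 was reached by 5 genes with limma and by 4 with edgeR and DESeq2. The limma genes were OAS3 (0.58 ± 0.12, adjusted p = 0.061), TAP2 (0.64 ± 0.13, adjusted p = 0.058), TAP1 (0.45 ± 0.11, adjusted p = 0.1), MX1 (0.49 ± 0.17, adjusted p = 0.24) and IFITM1 (-2.01 ± 0.49, adjusted p = 0.11). Both HNF4G-ABBV-075 libraries were above both GFP-ABBV-075 libraries for OAS3, TAP1, TAP2 and MX1. That adds no support, as these genes were picked by their unadjusted p in this same comparison. TMPRSS2, whose exons overlap those of MX1, was itself higher in HNF4G cells by limma. The difference was 1.04 ± 0.10 under ABBV-075 (adjusted p = 0.0021) and 0.53 ± 0.10 under DMSO (adjusted p = 0.064, not called). The share of MX1 reads that came from TMPRSS2 was not tested. Leaving out HNF4G-ABBV-075 number 2 gave 2 calls, IFITM1 (-2.53, adjusted p = 0.042) and TAP2 (0.72, adjusted p = 0.043), where 2.49% of all tested genes were then higher and 1.24% lower.

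The test of whether the transgene altered the response to ABBV-075 also gave 0 calls among the 32 genes with each tool, where 0.0112% of all genes were higher and 0% lower by limma. With each tool 1 gene, IFITM1 by limma, had an unadjusted p under 0.05. The adjusted p was 1 for each of the 32 genes by limma, including the 6 that were called in 1 line only. Those 6 are thus not shown to differ between the lines. HNF4G transcripts meanwhile differed between the lines under ABBV-075 by 7.52 ± 0.15 on the log2 scale.

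These comparisons gave other counts without the pair of libraries of low GC content. There, 5 genes were called under DMSO, namely OAS3 (0.41), IFITM3 (0.40), HLA-E (0.65) and B2M (0.21) higher and ISG15 (-0.29) lower in HNF4G cells, while 3.46% of all tested genes were higher and 3.05% lower. Under ABBV-075 9 genes were called, all higher in HNF4G cells, OAS3, ISG15, ISG20, IFITM3, HLA-C, HLA-E, TAP1, TAP2 and PSMB9, with changes from 0.34 for ISG15 to 0.94 for PSMB9, while 9.38% of all tested genes were higher and 8.43% lower. The interaction was then called for ISG15 (0.63, adjusted p = 0.0096), and for 1.79% of all tested genes in that direction and 0.246% in the other. In that setting each HNF4G group is 1 library, and the spread is that of the GFP pairs. A correction for GC content and length that kept all 8 libraries gave 3 calls under DMSO (HLA-C, HLA-E and B2M, all higher) and 7 under ABBV-075 (OAS3, HLA-C, HLA-E, TAP1 and TAP2 higher, IRF2 and IFITM1 lower). With it 3.96% of all tested genes were higher and 2.71% lower under DMSO, and 6.79% and 6.41% under ABBV-075. HLA-E was higher in HNF4G cells by 0.53 under DMSO and by 0.48 under ABBV-075 after that correction (adjusted p = 0.012 for each).

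Within the HNF4G-DMSO pair, the difference of number 2 from number 1 had a Pearson correlation of -0.52 with transcript GC content over the 32 genes, and -0.60 over 17861 tested genes with a known GC content. For number 1 against number 2 of HNF4G-ABBV-075 the correlations were -0.61 and -0.67. In the GFP pairs they were -0.16 and 0.07 over the 32 genes. Points in each of these correlations share 2 libraries. Of 13 genes with at least 55% GC, 12 were lower in both libraries of low GC content than in their partners, the exception being IFI6, and 55% was chosen after the values were seen. The lowest difference in both pairs was that of ISG15, at -1.19 and -1.79, whereas DDX60, with 38.8% GC, was higher by 0.57 and 0.68.

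**Figure D5:**
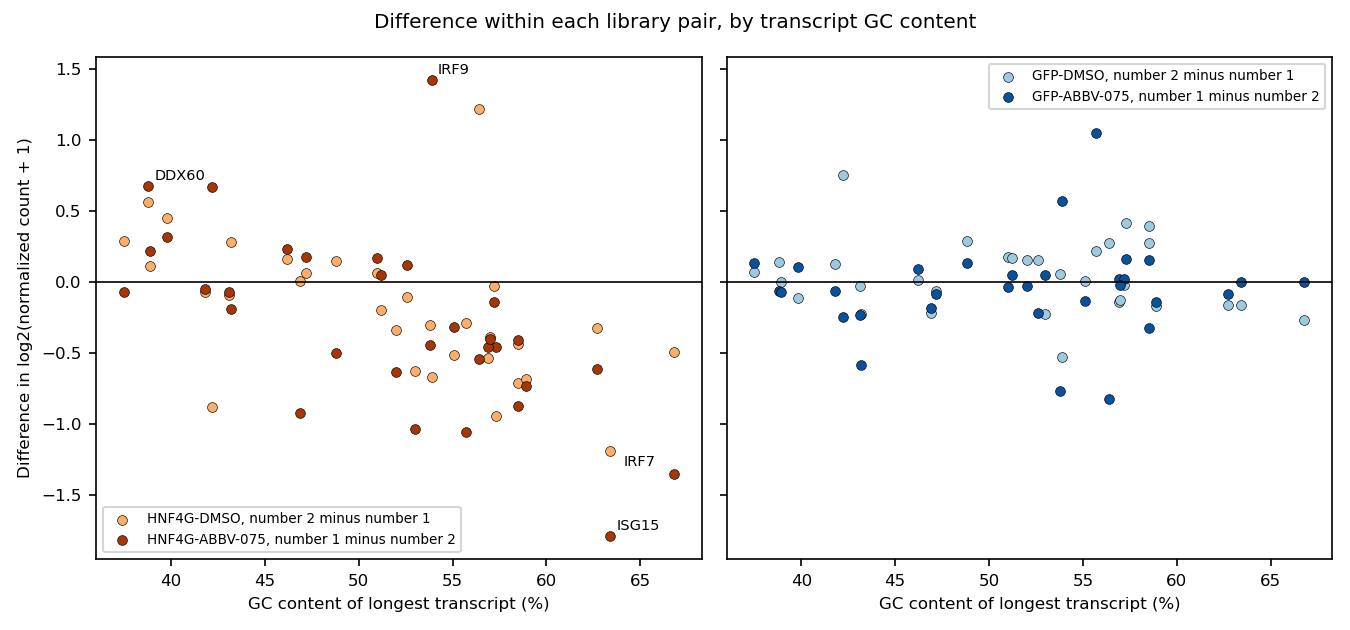
Difference in log2(normalized count + 1) within each pair of libraries against the GC content of the longest transcript, for the 32 tested genes. The left panel holds the HNF4G pairs, as the library of low GC content minus its partner, and falls with GC content to -1.79 for ISG15. The right panel holds the GFP pairs, where the correlations with GC content are -0.16 and 0.07.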

How the data were processed

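Paired-end RNA-seq after poly-A capture was available for 8 libraries of 22Rv1 cells, 2 in each of 4 groups named in the labels. The authors aligned reads to hg38 with STAR, according to the study's methods (version 2.6 in the submitters' processing notes). The deposited signal is a normalized count, a gene's reads over 1 size factor per library, whereas the study's methods describe log2 TPM. How reads were assigned to genes, with what strand setting and annotation, and how size factors were set was not given in the sources used here. Division by each library's smallest step gave whole reads within 0.01 for 100% of the values above 0. In GFP-DMSO number 2 the step is 1.01, too near 1 for a general test of such steps.

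Of 57605 entries, 2 that repeated an identifier were dropped. Log2(normalized count + 1) of the 17876 genes with a mean of at least 10, which hold at least 99.9% of the reads of each library, was fitted as 4 group means over all libraries, with the trend option of limma 3.58.1 in R 4.3.3. It was tested two-sided for 5 contrasts, with Benjamini-Hochberg adjustment over all genes tested and calls at 0.05. Fold changes on this scale understate those of low genes. The fit was also run on simulated counts. Those had far fewer changed genes than these data and no library that deviated by GC content, so no conclusion is drawn from that run. Coordinates, length and GC content came from GENCODE 44 (GRCh38), with the longest transcript of each gene.

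The 41 genes, the other lists and the motifs were chosen with earlier results of these data known. Every one of the 41 is accounted for, and values in each library are given for up to 20 called genes with the largest changes. Outside that rule, and chosen after the values were seen, library values are also given for B2M and ISG15 and, in part, for IFI44 and IKBKE. From the other lists the text names, for each drug contrast, the 2 largest rises and the 2 largest falls that were called in genes averaging at least 50. Alternatives were pseudocounts of 0.5 and 8, a filter at a mean of 100 or none, quantile, trimmed-mean and median-of-ratios scaling, a fit of only the libraries compared, a replicate block, edgeR 4.0.16 and DESeq2 1.42.0 on the recovered reads, leaving out each library, and leaving out both libraries of low GC content. A correction for GC content and length, with and without the block, and a crossed block were added after seeing the data. Some marker genes are not reported singly here.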

Additional observations from a re-analysis of the deposited data

How the results depend on the processing

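No called change reversed under any alternative. In GFP cells 12 of 21 calls and in HNF4G cells 13 of 21 held under every alternative that could be fitted, and 10 of these genes held in both lines (DDX58, IFI6, IFIH1, IFIT5, IFITM2, MX1, OAS3, PSMB8, STAT2 and TAP2). Leaving out 1 library at a time gave 13 to 24 calls in GFP cells, with 13 when any GFP library was absent, and 18 to 23 in HNF4G cells. With only the 4 libraries compared there were 26 calls in GFP cells and 14 in HNF4G cells, where B2M, TAP1, IRF2, DDX60, USP18, IFITM3 and PSMB9 were lost, and 60.1% and 15.6% of all tested genes were called. A lone library is assumed to vary like the other groups.

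Between HNF4G and GFP cells, the correction for GC content and length gave calls in 6.67% of all tested genes under DMSO. Under ABBV-075 it gave 13.2%. With the replicate block added, the shares were 3.77% and 8.41%. These shares exceeded those of the main fit, so the further calls below are not shown to be particular to these genes. HNF4G against GFP cells had 0 calls among these genes in the main fit. Under DMSO it had 5 without the libraries of low GC content, 3 with the correction for GC content and length, and 1 with that correction and the replicate block. Under ABBV-075 it had 0 to 2 when single libraries were left out, then 9, 7 and 4 in those settings. The interaction had 1 call without the libraries of low GC content.

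Libraries with the same number shared only the number, with correlations of their deviations from -0.60 to 0.13. The replicate block gave 18 calls in GFP cells, 20 in HNF4G cells and 0 in the other comparisons. With it 26.3% of all tested genes were called in GFP cells and 24.1% in HNF4G cells. With the numbers of HNF4G-ABBV-075 crossed there were 23, 23 and 0. Of all tested genes 37.8% were then called in GFP cells and 36.1% in HNF4G cells. Other scalings moved the median of all genes by at most 0.059 (log2). Genes under a mean of 10 were not tested in the main fit. That minimum was a choice, and the alternative without a filter covered 35751 genes.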
